A study of Mus musculus with 5 samples.

Results

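The cyclin, E2F and DNA replication genes are a list of 38 mouse genes that drive, restrain or mark passage through the cell cycle. They were chosen by name, and all 38 were found among the 21951 protein-coding genes of the GENCODE M21 annotation. Peaks of JunB and of H3K27ac in mouse muscle stem cells (MuSCs) were assigned to these genes by their distance from any annotated transcription start site (TSS). A peak within 3 kb of a TSS was called a promoter peak, and a peak at 3 to 50 kb was called a distal peak. By this rule 15 of the 38 genes had a promoter JunB peak in at least 1 library (39.5%, beside 25.9% of all protein-coding genes). Another 15 had distal JunB peaks alone (39.5%, beside 38.7%), and 8 had no JunB peak within 50 kb (21.1%, beside 35.4%).

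MuSCs are the resident stem cells of skeletal muscle. They are quiescent in undisturbed muscle and re-enter the cell cycle after injury. D-type cyclins with Cdk4 or Cdk6 phosphorylate pocket proteins, which frees E2F factors to switch on the genes of DNA synthesis, among them cyclin E, cyclin A, Cdt1, Cdc6 and the MCM helicase. Licensing is the loading of the MCM helicase onto replication origins by the origin recognition complex, Cdc6 and Cdt1, while cyclin B with Cdk1, Plk1 and the Aurora kinases act in mitosis. JunB is a member of the AP-1 family, which forms dimers on DNA and is known both to activate and to hold back cell cycle genes. H3K27ac is an acetylated histone found at promoters and enhancers in use.

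The binding data came from CUT&RUN-seq, in which an antibody on permeabilised cells directs a nuclease to cut out the DNA beside the bound protein. There were 3 libraries made with a JunB antibody from MuSCs of young mice, labelled as biological replicates 1 to 3, and 1 such library from MuSCs of aged mice. A single H3K27ac library of MuSCs carried no age label, and the methods of the study also tie it to a public epigenome project. The study sorted MuSCs by flow cytometry, and they are the only cell type labelled here. The labels give no strain, sex or age in months, and no source used here says how many mice went into a library; the aged mice of the study were C57BL/6. The design text of the series names mice given DMSO or MVC for the JunB libraries, while the sample labels name young and aged mice, and the sample labels were followed. With 1 aged library, age and library cannot be told apart and no test between ages was made.

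The JunB peak lists differed in size and in the threshold they had passed. The young libraries held 9534, 4884 and 3863 peaks, and the aged library held 14123. The weakest peak had a −log10 p of 3.01 in both young library 1 and the aged library, while it was 5.33 and 5.22 for young libraries 2 and 3. The H3K27ac library held 39865 peaks. Read counts are not part of the lists, and the depth at a peak is therefore unknown. Of 10 MuSC marker genes, 6 had a promoter H3K27ac peak, beside 49.8% of all protein-coding genes, and Pax7 and Myf5, which define these cells, lacked one. Endothelial, fibro-adipogenic and muscle fibre markers had one at 2, 1 and 2 of 5 genes, and immune markers at 0 of 5. Within 50 kb, H3K27ac was found at all 10 MuSC markers, at 4 of 5 endothelial, 4 of 5 fibro-adipogenic and 4 of 5 muscle fibre markers and at 2 of 5 immune markers, and the part of other cells in the results was not tested.

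Only 3 of the 38 genes, E2f1, E2f3 and Cdt1, had a promoter JunB peak in all 4 JunB libraries (7.89%, beside 4.40% of all protein-coding genes). E2f1 and E2f3 encode activator E2Fs, and Cdt1 encodes the licensing factor that brings the MCM helicase to origins. At each of the 3 genes the peaks of all 4 libraries overlapped. The shared stretch measured 240 bases at E2f1, 310 bases at E2f3 and 349 bases at Cdt1, and the 4 summits lay within 106, 55 and 22 bp of each other. All 3 stretches lay upstream of the nearest TSS. They are shown here because they are the only promoter sequences of the list occupied in every JunB library. The sequence of each stretch was read from GRCm38.p6, the mm10 build, on the strand of the gene and 5′ to 3′, with at most 300 bases around the summits. Capitals mark matches to the motifs searched: E2F (TTTCCCGC, TTTGGCGC or TTTCGCGC), the cell cycle homology region or CHR (TTTGAA), the CCAAT box (CCAAT), AP-1 (TGACTCA or TGAGTCA) and the cAMP response element or CRE (TGACGTCA), each on either strand. The E2F motifs can overlap one another. CRE was added to the search after the sequences had been seen.
E2f1, chr2:154570108-154570347, minus strand: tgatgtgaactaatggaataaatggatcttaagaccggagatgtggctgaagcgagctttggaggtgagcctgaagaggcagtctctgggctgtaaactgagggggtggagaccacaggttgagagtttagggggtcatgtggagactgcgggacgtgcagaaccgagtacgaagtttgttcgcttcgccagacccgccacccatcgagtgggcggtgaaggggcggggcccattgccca
E2f3, chr13:29986387-29986686, minus strand: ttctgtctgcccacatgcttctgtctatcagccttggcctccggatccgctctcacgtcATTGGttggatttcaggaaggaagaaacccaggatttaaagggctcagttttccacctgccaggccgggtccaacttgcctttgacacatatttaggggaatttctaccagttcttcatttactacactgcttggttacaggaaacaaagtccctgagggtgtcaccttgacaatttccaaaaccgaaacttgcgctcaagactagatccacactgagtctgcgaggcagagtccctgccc
Cdt1, chr8:122567587-122567886, plus strand: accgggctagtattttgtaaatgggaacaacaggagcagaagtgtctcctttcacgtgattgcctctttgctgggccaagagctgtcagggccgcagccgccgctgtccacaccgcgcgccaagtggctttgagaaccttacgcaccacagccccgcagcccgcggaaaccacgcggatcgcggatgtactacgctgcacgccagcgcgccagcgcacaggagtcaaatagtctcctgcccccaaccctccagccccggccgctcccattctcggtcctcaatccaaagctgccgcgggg
The E2f1 stretch runs from 455 to 216 bases before the nearest TSS, the printed E2f3 stretch from 623 to 324 bases before it and the printed Cdt1 stretch from 428 to 129 bases before it. The GC content was 56.7% at E2f1, 49.7% at E2f3 and 62.7% at Cdt1. The only motif match in the 3 printed stretches was 1 CCAAT box, read on the opposite strand, at E2f3. E2f1 and E2f3 lay outside annotated transcripts, while the Cdt1 stretch also lay in an intron of Gm20388, a long overlapping locus.

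Cdt1 had the strongest promoter peak of the list in each JunB library. Its −log10 p was 45.4, 33.8 and 29.3 in young libraries 1 to 3 and 22.1 in the aged library. The fold enrichment over the local background of the same library was 13.8, 11.8 and 13.2 in the young libraries, against 9.46 in the aged library. The aged values lay below all 3 young values on both scales. Both scales are relative to the peak's own library, whose depth is unknown, and percentile ranks depend on the length of the list, so neither compares the amount of JunB between libraries. Percentiles of −log10 p are given below only to place a peak within its own library.

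E2f3 had a −log10 p of 9.43, 17.7 and 12.9 in young libraries 1 to 3 and 15 in the aged library. E2f1 had values of 7.46, 19 and 8.07 in the young libraries, against 11.4 in the aged library. At both genes the aged value lay between the lowest and the highest young value. The E2f1 promoter had no H3K27ac peak within 3 kb in these data, whereas the Cdt1 and E2f3 JunB peaks overlapped H3K27ac peaks.

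**Figure D1:**
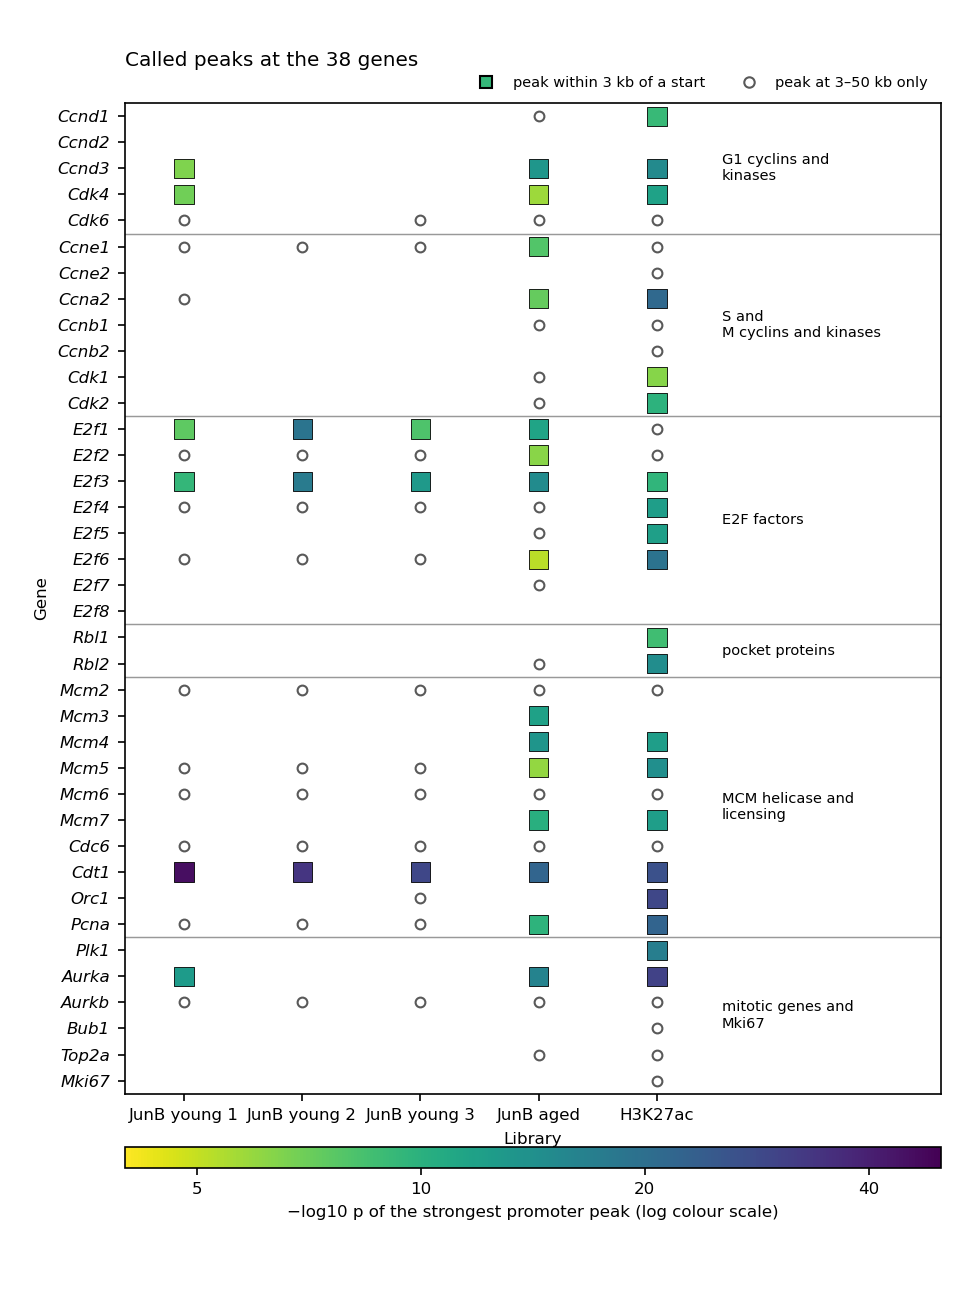
Promoter and distal peaks of the 38 genes (rows, grouped by role) in the 4 JunB libraries and the H3K27ac library (columns). Filled squares are promoter peaks, coloured by the −log10 p of the strongest one on a log colour scale, open circles mark genes with peaks at 3–50 kb only, and an empty cell means no peak within 50 kb. E2f1, E2f3 and Cdt1 form the only rows with filled squares in all 4 JunB libraries. The aged column, from the longest JunB list, holds 15 filled squares (39.5%, beside 23.9% of all protein-coding genes). The young columns hold 6, 3 and 3 (15.8%, 7.89% and 7.89%, beside 11.1%, 7.79% and 5.95%).

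Promoter occupancy of the list was near that of other genes in the young libraries and above it in the aged library. Young library 1 had a promoter peak at 6 of the 38 genes (15.8%, beside 11.1% of all protein-coding genes), young library 2 at 3 (7.89%, beside 7.79%) and young library 3 at 3 (7.89%, beside 5.95%). The mean over the young libraries was 10.5% ± 4.56 (SD, n = 3) for the list and 8.28% ± 2.61 (SD, n = 3) for all protein-coding genes, so the difference was smaller than the spread between young libraries. The 6 genes of the young libraries together made up 15.8%, beside 12.8%. In the aged library the number was 15 genes (39.5%, beside 23.9%), and the 95% exact binomial interval of the share ran from 24.0% to 56.6%, which covers counting error of genes only. The aged count was above that of every young library, both for the list and for all genes. The 15 genes of the aged library were also all the genes with a promoter peak in any JunB library, where the background was 25.9%.

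The aged list was the longest, and the aged count was smaller when the lists were made equally long. With each JunB list cut to its 3863 strongest peaks, the number in the smallest list, 9 of the 38 genes had an aged promoter peak (23.7%, beside 8.83% of all protein-coding genes) against 2, 3 and 3 in the young libraries (5.26%, 7.89% and 7.89%, beside 5.52%, 6.08% and 5.95%). The 9 genes were Ccnd3, E2f1, E2f3, Mcm3, Mcm4, Mcm7, Cdt1, Pcna and Aurka. With a common lowest −log10 p of 5.33 the counts were 6, 3 and 3 in the young libraries (15.8%, 7.89% and 7.89%, beside 10.1%, 7.79% and 5.94% of all protein-coding genes). The aged count was then 14 (36.8%), a share 16.8 percentage points above that of all protein-coding genes.

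**Figure D2:**
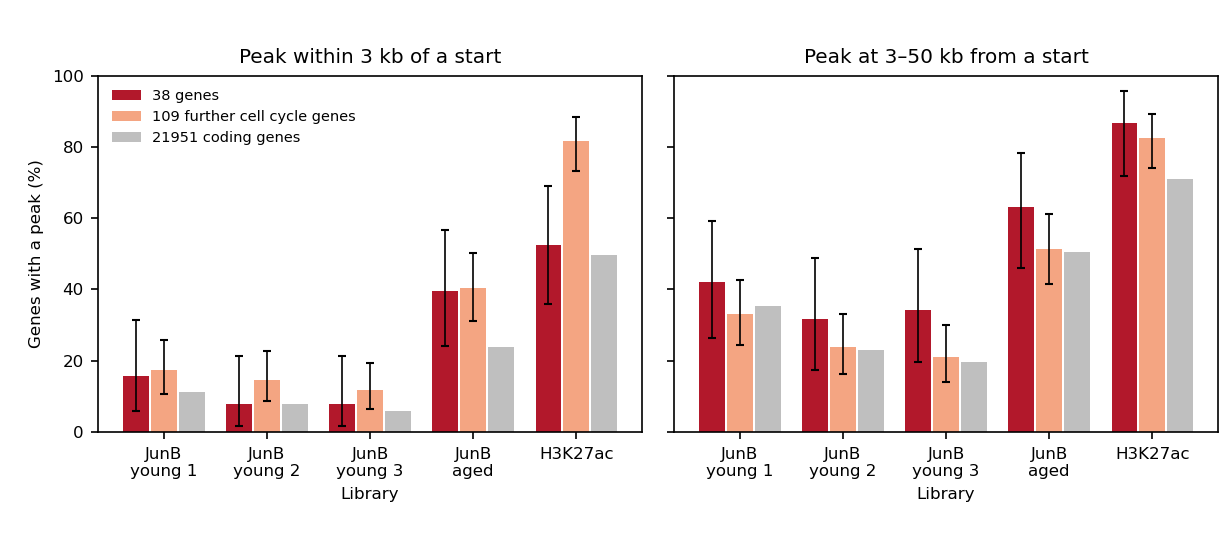
Share of genes with a peak (percent, vertical axis) in each library, at promoters (left) and at 3–50 kb (right). Bars are for the 38 genes, for 109 further genes, most of them of the cell cycle, and for all 21951 protein-coding genes. Error bars are 95% exact binomial intervals, which cover counting error of genes only. At promoters the list stood at 39.5% in the aged library and between 7.89% and 15.8% in the young libraries. All protein-coding genes stood at 23.9% in the aged library and between 5.95% and 11.1% in the young libraries.

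There were 9 genes whose promoter JunB peak was called in aged MuSCs alone (23.7%, beside 13.1% of all protein-coding genes). They were Ccne1, Ccna2, E2f2, E2f6, Mcm3, Mcm4, Mcm5, Mcm7 and Pcna. No gene of the list had a promoter peak in a young library and lacked one in the aged library (0 of 38, beside 1.95%). None of the 9 aged peaks overlapped a peak of a young library.

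Genes of the MCM helicase and of the polymerase clamp made up 5 of these 9 genes. Mcm3, Mcm4, Mcm5 and Mcm7 encode subunits of the helicase that opens DNA ahead of the replication fork, and Pcna encodes the sliding clamp that holds DNA polymerases on their template. The aged −log10 p was 13.4 at Mcm4, 11.8 at Mcm3, 10.2 at Mcm7, 9.77 at Pcna and 6.02 at Mcm5. These values stood at the 85.4th, 80.8th, 74.9th, 72.9th and 33.1st percentiles of the aged library. The summit lay 138 bases before the nearest TSS at Mcm5, on a TSS at Mcm3 and 34 bases after one at Mcm7. The Mcm4 peak was also within 3 kb of a TSS of Prkdc, which encodes a DNA repair kinase, and the Mcm7 peak within 3 kb of one of Ap4m1, so these peaks cannot be assigned to 1 gene. Mcm4, Mcm5, Mcm7 and Pcna had JunB peaks that overlapped H3K27ac, and Mcm3 had no H3K27ac peak within 50 kb. Mcm2 and Mcm6, the other two subunits, had distal JunB peaks in all 4 libraries and no promoter peak.

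The 250 bases before the RefSeq TSS of Mcm3 and Mcm5 are shown as examples of promoters with an aged peak alone, with the same capitals.
Mcm3, chr1:20820313-20820562, minus strand: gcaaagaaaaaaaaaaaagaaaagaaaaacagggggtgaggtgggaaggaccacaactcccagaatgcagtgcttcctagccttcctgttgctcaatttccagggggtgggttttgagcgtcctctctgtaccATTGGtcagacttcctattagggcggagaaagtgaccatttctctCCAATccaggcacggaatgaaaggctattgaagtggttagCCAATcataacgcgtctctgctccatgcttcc
Mcm5, chr8:75109259-75109508, plus strand: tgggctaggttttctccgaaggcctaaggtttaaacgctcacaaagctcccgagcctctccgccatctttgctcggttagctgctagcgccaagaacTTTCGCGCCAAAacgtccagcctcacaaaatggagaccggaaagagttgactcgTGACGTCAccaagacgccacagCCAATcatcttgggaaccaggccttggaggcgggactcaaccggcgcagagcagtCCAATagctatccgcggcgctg
Of these windows, 94 bases at Mcm3 and 215 bases at Mcm5 lay within the aged JunB peak. The Mcm3 window held 3 CCAAT boxes, of which the box read on the opposite strand lay outside the aged peak. It held no E2F match, and the match counted for Mcm3 below was not within it. The Mcm5 window held 2 CCAAT boxes, 2 overlapping E2F matches and 1 CRE, a sequence that AP-1 dimers with ATF partners are known to bind.

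Of the remaining 4 aged-only genes, Ccne1 and Ccna2 encode cyclins E1 and A2, which drive entry into and passage through S phase with Cdk2. Their aged −log10 p was 7.93 and 7.25, at the 58.8th and 50.3rd percentiles. The Ccna2 peak overlapped H3K27ac, and the Ccne1 peak did not. The 81 bases around the Ccne1 summit, from 373 to 293 bases before the nearest TSS, held no match to any of the motifs and had a GC content of 70.4%.
Ccne1, chr7:38107827-38107907, minus strand: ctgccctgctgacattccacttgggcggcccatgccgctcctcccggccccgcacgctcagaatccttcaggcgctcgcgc
E2f2, an activator E2F, had an aged −log10 p of 6.27 in a peak that fell on a coding exon beside an internal TSS. E2f6, a repressor E2F, had a value of 5.21, at the 18.8th percentile, and was the only one of the 15 aged genes that fell out at the common lowest −log10 p.

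Ccnd3, Cdk4 and Aurka had promoter peaks in young library 1 and the aged library, but in neither of the other young libraries. Ccnd3 encodes cyclin D3 and Cdk4 its kinase partner. The Ccnd3 peak began 2776 bp from the TSS in young library 1 and 2535 bp in the aged library, just inside the 3 kb limit and in an intron of Taf8, with a −log10 p of 6.52 and 13.3. At Cdk4 the 2 peaks, of 6.89 and 5.77, did not overlap each other, and both were also within 3 kb of a TSS of March9. Aurka encodes Aurora kinase A, and its peak was the strongest of these genes, with 12.6 in young library 1 and 16.2 in the aged library. Both Aurka summits lay on a UTR exon of Cstf1, a neighbour whose TSS was also within 3 kb. Just outside the limit, the nearest JunB peaks were at 4167 bp from Cdk4 and 4454 bp from E2f2, both in young library 1.

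**Figure D3:**
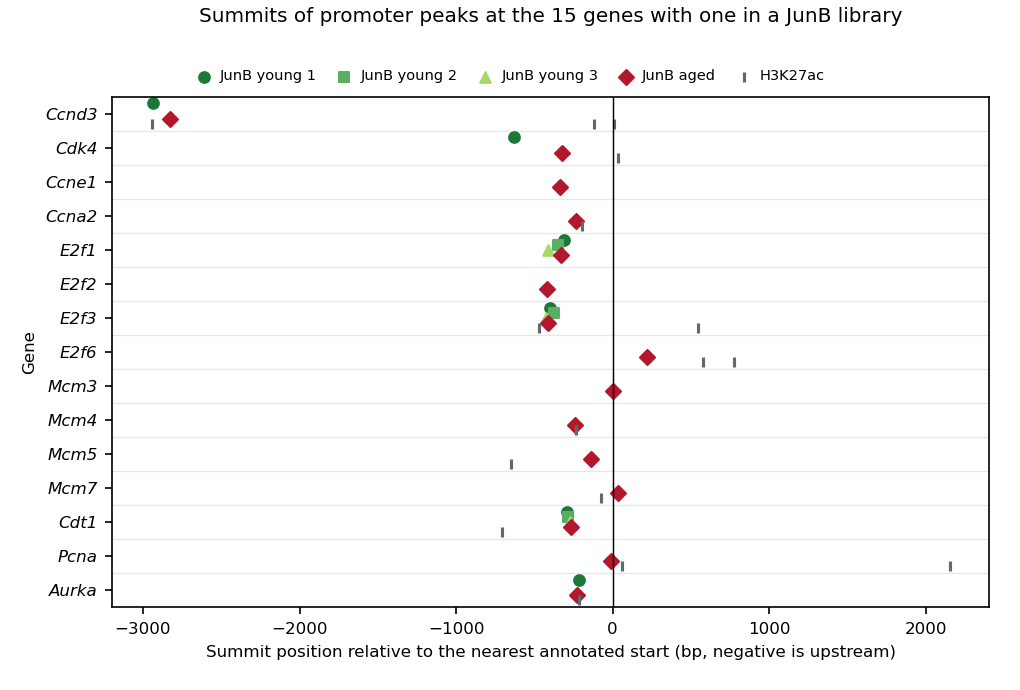
Summit positions of promoter peaks at the 15 genes with one in a JunB library (rows), in bp from the nearest annotated TSS with negative values upstream. Symbols mark the libraries. The 4 JunB summits of E2f1, E2f3 and Cdt1 lie within 106, 55 and 22 bp, while the Ccnd3 summits lie near the 3 kb limit.

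By role, the licensing group, which was also the largest, had the most genes with an aged promoter peak. The counts by role stand beside the 11.1%, 7.79% and 5.95% of all protein-coding genes in young libraries 1 to 3 and the 23.9% in the aged library. Of 10 MCM and licensing genes, 1 had a promoter peak in each young library and 6 in the aged library. Of 8 E2F genes, 2 had one in each young library and 4 in the aged library. The 7 cyclins and kinases of S phase and mitosis had none in the young libraries, against 2 in the aged library. Of 5 G1 cyclins and kinases, 2 had one in young library 1, none in young libraries 2 and 3 and 2 in the aged library. The 6 mitotic genes, counting Mki67, had 1 in young library 1 and 1 in the aged library, Aurka in both. Neither pocket protein gene, Rbl1 or Rbl2, had a promoter JunB peak, while both had a promoter H3K27ac peak. The differences between roles were not tested.

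H3K27ac marked the promoters of 20 of the 38 genes (52.6%, beside 49.8% of all protein-coding genes). Among these 20 genes, 11 had an aged promoter JunB peak (55.0%, beside 42.4% of genes with promoter H3K27ac) and 5 had one in a young library (25.0%, beside 23.1%). Among the 18 genes without promoter H3K27ac, 4 had an aged promoter JunB peak (22.2%, beside 5.55%) and 1 had one in a young library (5.56%, beside 2.52%). The 4 were Ccne1, E2f1, E2f2 and Mcm3. The other 14 genes without promoter H3K27ac were Ccnd2, Cdk6, Ccne2, Ccnb1, Ccnb2, E2f7, E2f8, Mcm2, Mcm6, Cdc6, Aurkb, Bub1, Top2a and Mki67. These 14 comprised both cyclin B genes, the topoisomerase Top2a and the proliferation marker Mki67. Another 9 genes had promoter H3K27ac and no promoter JunB peak, namely Ccnd1, Cdk1, Cdk2, E2f4, E2f5, Rbl1, Rbl2, Orc1 and Plk1. The limit of 3 kb decided some of these calls: a Cdk1 peak lay at 2207 bp, and an Mcm2 peak with a −log10 p of 25.5 lay at 3089 bp.

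Distal JunB peaks, counted over a much wider window than promoter peaks, were found at 16 of the 38 genes in young library 1 (42.1%, beside 35.3% of all protein-coding genes), at 12 in young library 2 (31.6%, beside 22.9%) and at 13 in young library 3 (34.2%, beside 19.7%). The mean over the young libraries was 13.7 ± 2.08 genes (SD, n = 3), and the young libraries together had 17 genes (44.7%, beside 38.3%). The aged library had 24 genes (63.2%, beside 50.6%), with a 95% exact binomial interval from 46.0% to 78.2%. H3K27ac peaks were found at this distance for 33 genes (86.8%, beside 70.9%). A peak at 3 to 50 kb can be linked to several genes. When each peak was linked only to the protein-coding gene with the nearest TSS, the aged count dropped to 6 and the list no longer exceeded the background, and within 20 kb the aged count was 10, also without an excess. Among genes with a promoter H3K27ac peak, the list was above the background by 2.58 percentage points, against 12.5 among all genes.

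The strongest distal peaks were shared by young and aged MuSCs. The link with the highest −log10 p in the aged library lay 18525 bp from Cdt1 in an intron of Piezo1, which encodes a mechanically gated ion channel. This peak was also within 3 kb of a TSS of Piezo1 and cannot be assigned to a single gene. Its −log10 p was 120, 114 and 76.2 in young libraries 1 to 3 and 43.7 in the aged library. The next lay 37526 bp from Pcna in an intron of Gm14051, with values of 123, 94.4 and 47.9 in the young libraries, against 28.7 in the aged library. The fold enrichment at the Cdt1 region was 21.9, 21.5 and 21 in the young libraries, against 13 in the aged library. At the Pcna region it was 21.7, 20.1 and 17.1 in the young libraries, against 12.2 in the aged library. At both regions the aged values were the lowest of the 4. The 4 summits lay within 34 bp of each other at the Cdt1 region and within 33 bp at the Pcna region.

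The middle 300 bases shared by the 4 libraries are shown for both regions, on the strand of the linked gene, because they were the strongest JunB peaks near any gene of the list.
Cdt1 region, chr8:122548921-122549220, plus strand: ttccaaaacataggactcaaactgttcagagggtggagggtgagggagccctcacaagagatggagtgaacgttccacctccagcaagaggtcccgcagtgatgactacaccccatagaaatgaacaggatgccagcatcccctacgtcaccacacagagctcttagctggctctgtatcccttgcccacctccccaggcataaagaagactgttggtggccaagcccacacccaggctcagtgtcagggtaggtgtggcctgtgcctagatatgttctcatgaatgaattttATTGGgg
Pcna region, chr2:132212206-132212505, minus strand: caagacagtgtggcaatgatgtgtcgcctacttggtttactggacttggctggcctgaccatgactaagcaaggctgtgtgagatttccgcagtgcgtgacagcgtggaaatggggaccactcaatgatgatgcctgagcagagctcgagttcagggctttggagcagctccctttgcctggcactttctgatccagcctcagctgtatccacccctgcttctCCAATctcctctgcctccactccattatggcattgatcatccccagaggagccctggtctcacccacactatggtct
Each region held 1 CCAAT box and no match to the AP-1 letters. The Cdt1 region overlapped an H3K27ac peak and the Pcna region did not.

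Of the next 8 links in the aged library, 5 also overlapped peaks in all 3 young libraries. They were at E2f4 (−log10 p of 22.1, 8045 bp from the TSS), Mcm2 (22, 49493 bp), E2f6 (94.2nd percentile, 26548 bp), Mcm5 (16.7, 19694 bp) and E2f2 (16.3, 48536 bp). E2f4 is a repressor E2F of quiescent cells. Its peak had a −log10 p of 38.8, 40.2 and 24.3 in young libraries 1 to 3 and lay in an intron of 4931428F04Rik. The Cdc6 link (15.1, 21660 bp), in an intron of the retinoic acid receptor gene Rara, overlapped peaks in 2 young libraries. A second Cdt1 link (13.3, 11366 bp) overlapped a peak in 1 young library, and the E2f5 link (13.2, 32725 bp) in none. The aged peaks at E2f4, Mcm2, Cdc6 and E2f5 were also within 3 kb of a TSS of another gene. Those genes were 4931428F04Rik for E2f4, Abtb1 and Podxl2 for Mcm2, Rara for Cdc6 and 1810022K09Rik for E2f5. These peaks cannot be assigned to a single gene.

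In all, 11 genes had a distal peak in all 4 JunB libraries (28.9%, beside 15.6% of all protein-coding genes): Ccne1, E2f2, E2f4, E2f6, Mcm2, Mcm5, Mcm6, Cdc6, Cdt1, Pcna and Aurkb. The exact binomial interval of this share ran from 15.4% to 45.9% and included the background. The count is by gene, and Ccne1 and Cdc6 had no distal site shared by all 4 libraries. At Ccne1 the peak of young library 1 overlapped none of the other libraries. At Cdc6 the peak of young library 3 overlapped none of young library 2 or the aged library. Of the 11 genes, Ccne1, E2f2, E2f6, Mcm5 and Pcna were among the 9 genes whose promoter peak was in the aged library alone. A distal peak was found in the aged library alone at 10 genes (26.3%, beside 19.3%), Ccnd1, Ccnb1, Cdk1, Cdk2, E2f5, E2f7, Rbl2, Mcm4, Mcm7 and Top2a, and in a young library alone at Cdk4, Ccna2 and Orc1 (7.89%, beside 6.97%). The Orc1 peak, in young library 3, had a −log10 p of 6.99 and was the only JunB peak within 50 kb of this subunit of the origin recognition complex. Cdk6 had a peak 23539 bp from a TSS in its own intron in the aged library (13), with counterparts in young library 1 (7.96) and young library 3 (9.14). The only JunB peak near Ccnd1, which encodes cyclin D1, was 23162 bp away in the aged library (8.84). That peak was also within 3 kb of a TSS of LTO1, and the Orc1 peak within 3 kb of a TSS of Cc2d1b.

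**Figure D4:**
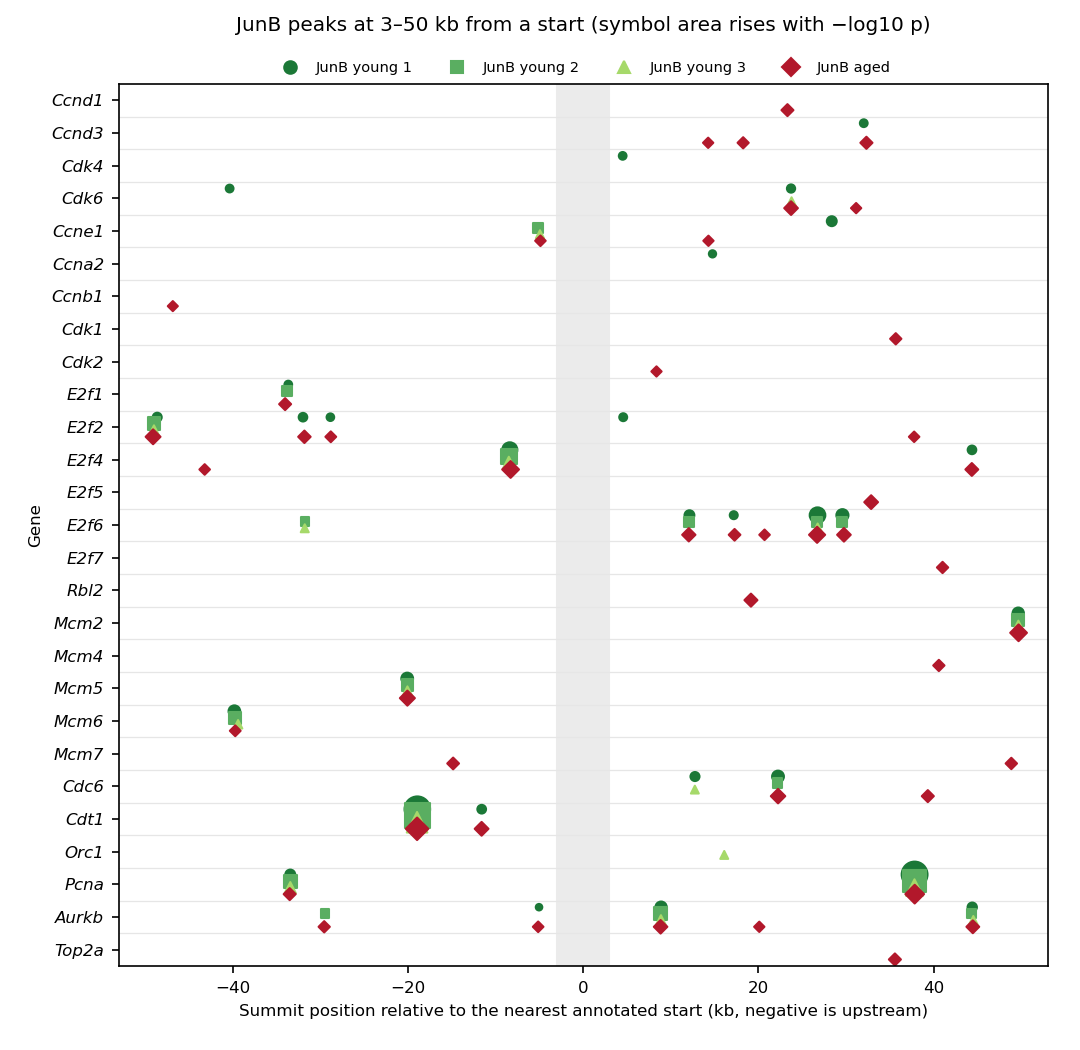
Positions of JunB peaks at 3–50 kb from a TSS for the 27 genes that had one (rows), in kb from the nearest annotated TSS with negative values upstream. Symbols mark the libraries, symbol area rises with −log10 p and the grey band marks the promoter window. The strongest regions, near Cdt1 and Pcna, carry all 4 symbols.

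No JunB peak was found within 50 kb of 8 genes (21.1%, beside 35.4% of all protein-coding genes). These were Ccnd2, Ccne2, Ccnb2, E2f8, Rbl1, Plk1, Bub1 and Mki67. They comprised a D-type, an E-type and a B-type cyclin, the atypical repressor E2f8, the pocket protein p107 and genes of mitosis. Rbl1 and Plk1 had a promoter H3K27ac peak, Ccne2, Ccnb2, Bub1 and Mki67 had distal H3K27ac peaks alone, and Ccnd2 and E2f8 had none within 50 kb. The genes of the list had a median of 5 annotated TSSs, beside 3 for all protein-coding genes, and a gene with more TSSs has more windows in which a peak can fall.

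Motifs of cell cycle promoters were then counted in the sequences of the list. RefSeq promoter windows of GRCm38.p6, from 250 bases before to 50 bases after a TSS, were matched for 30 of the 38 genes, and Ccnd1, Ccnd2, Ccne2, Ccna2, E2f4, E2f5, Mcm4 and Aurkb were not matched. An E2F motif was present at 13 of the 30 genes (43.3%, beside 2.76% of 17492 protein-coding genes), among them E2f2, E2f3, E2f7, Rbl1, Mcm3, Mcm5, Mcm6, Mcm7, Cdc6, Cdt1 and Orc1. A CCAAT box was present at 21 (70.0%, beside 42.3%) and a CHR at 11 (36.7%, beside 18.5%). The CHR genes were Ccnb2, Cdk1, Plk1, Aurka, Top2a and Mki67, which act in mitosis or mark dividing cells, and E2f2, E2f3, E2f8, Rbl2 and Mcm2. The mitotic genes Ccnb1 and Bub1 were matched and had no CHR match. The AP-1 letters were present at 0 of the 30 genes, beside 5.40% of all. These genes were too few to tell 0 from such a share. CRE was present at 1, Mcm5 (3.33%, beside 2.54%). These are counts of letters in windows and say nothing of binding.

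The AP-1 letters were also absent from the 201 bases around the summits of the promoter peaks of the list: 0 of 15 in the aged library, beside 6.75% of all promoter peaks, and 0 of 6, 0 of 3 and 0 of 3 in the young libraries, beside 11.6%, 10.5% and 11.8%. These peaks were too few to tell 0 from such shares. An E2F motif was present at 3 of the 15 aged summits (beside 1.75% of all aged promoter peaks) and a CCAAT box at 5 (33.3%, beside 24.0%). In young libraries 1 to 3 an E2F motif was present at 0 of 6, 0 of 3 and 0 of 3 summits (beside 1.37%, 1.54% and 1.87%), and a CCAAT box at 1 of 6, 0 of 3 and 0 of 3 (beside 24.3%, 25.2% and 25.4%). Among distal peaks that lay within 3 kb of no other gene, the AP-1 letters were present at 1 of 15, 3 of 9 and 1 of 9 in young libraries 1 to 3 (6.67%, 33.3% and 11.1%, beside 14.7%, 18.3% and 18.6% of all such peaks). In the aged library they were present at 3 of 19 (15.8%, beside 11.1%), so the list lay above the background in 2 libraries and below it in the other two.

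**Figure D5:**
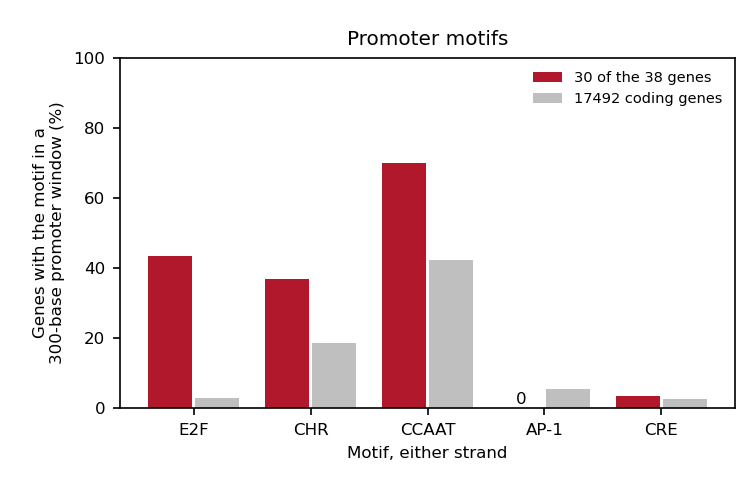
Share of genes (percent, vertical axis) with each motif on either strand of a RefSeq promoter window, for 30 of the 38 genes (red) and 17492 protein-coding genes (grey). The E2F share was 43.3% beside 2.76%, and the AP-1 share was 0 beside 5.40%. With 30 genes, an AP-1 share of 0 cannot be told from 5.40%.

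The list was set beside 109 further genes, most of them of the cell cycle. In these the promoter share was 17.4%, 14.7% and 11.9% in the young libraries, against 40.4% in the aged library, beside 11.1%, 7.79%, 5.95% and 23.9% of all protein-coding genes and 39.5% of the 38 genes in the aged library. Promoter H3K27ac was at 81.7% of the 109 genes, beside 52.6% of the 38 and 49.8% of all protein-coding genes. Among the 89 further genes with promoter H3K27ac, 41 had an aged promoter JunB peak (46.1%, beside 42.4% of all such genes). The excess was 3.65 percentage points, against 16.4 without this restriction. In the young libraries together the share was 24.7%, beside 23.1%. Among the 20 without promoter H3K27ac, 3 had an aged peak, a share 9.45 points above that of such genes. In the young libraries 0 of these 20 had one, beside 2.52%. The subgroup counts that follow stand beside the unrestricted JunB shares of all protein-coding genes. Of 37 further replication factors, 4, 3 and 4 had a promoter JunB peak in young libraries 1 to 3 and 12 in the aged library. Of 30 genes of mitosis and the checkpoints, the counts were 4, 3 and 1 in the young libraries, against 11 in the aged library. For 17 other cyclins and kinases, which include genes of transcription such as Cdk9, they were 7, 5 and 3 in the young libraries, against 11 in the aged library. For 12 E2F partners and related factors they were 2 in each young library and 6 in the aged library, and for 6 genes of nucleotide synthesis they were 0, 1 and 1 and then 2. The 7 genes of CDK inhibitors had the same count, 2, in every JunB library.

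Of the 109 genes, 8 had a promoter JunB peak in all 4 libraries (7.34%, beside the 4.40% given above): Cdkn1a, Cdkn2d, Cdk9, Ccni, Pole2, Lin52, Cdc45 and Ccnl1. Cdkn1a, which encodes the CDK inhibitor p21, had the highest −log10 p of the 8 in young libraries 1 and 2 and in the aged library, with 74.0, 52.7 and 32.0 in young libraries 1 to 3 and 37.8 in the aged library. Its peak lay in an intron of the gene. Cdkn2d, which encodes the CDK inhibitor p19, had values of 21.9, 26.9 and 22.4 in the young libraries, against 28.3 in the aged library. Cdk9, the kinase of transcription elongation, had 38, 44.8 and 35.3 in the young libraries, against 22 in the aged library. The replication factors Pole2 and Cdc45 had aged values of 14.6 and 9.88, within the young ranges of 8.30 to 19 and 7.46 to 10.4. The Cdc45 peaks were also within 3 kb of a TSS of Ufd1 and cannot be assigned to a single gene. The aged value of Lin52, a subunit of the DREAM complex, was 12.4, below its young values of 21.8, 17.4 and 14.7. Ccni had 17.9 in the aged library and between 16.2 and 20.2 in the young libraries, and Ccnl1 had 9.25 and between 17.0 and 25.0.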

How the data were processed

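Peak lists of 5 CUT&RUN-seq libraries of mouse MuSCs were analysed. The authors trimmed the reads, used Bowtie2 for alignment against mm10 and removed redundant reads. They describe MACS2 peak calling with a cutoff on p, and each library has its own list. Versions and a control library are not given in the sources used here. The deposited lists give for each peak a fold enrichment (a ratio to the local background), a −log10 p and a −log10 q, all relative to the peak's own library, and a score that was not used. The lowest −log10 q was 0.405 in young library 1 and 0.672 in the aged library. It was 2.26 and 2.10 in young libraries 2 and 3 and 2.04 in the H3K27ac library. The lists had therefore not all passed the same cutoff. No column of per-sample values was left unmapped (0).

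Peaks were linked by their nearest edge to every annotated TSS of GENCODE M21 on GRCm38, at up to 3 kb or at 3 to 50 kb. Motifs were counted as exact letters on both strands of RefSeq promoters and of windows of 201 bases centred on summits. Intervals are 95% exact (Clopper-Pearson) binomial intervals of counts of genes. No test was made between ages or between gene lists, since there was 1 aged library and the background is a description. The young libraries are labelled as biological replicates. No source used here says which mice went into each, so the SD over young libraries may still be technical.

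The genes and lists were chosen with earlier results of these data known. Named genes were those with a promoter JunB peak in all 4 libraries, in the aged library alone, in at least 2 young libraries but not the aged one (there were 0) or with no JunB peak, the 10 strongest distal links in the aged library and, of the further genes, those with a promoter peak in all 4 libraries. The genes named for H3K27ac, for motifs, for role groups, Orc1, Cdk6 and Ccnd1 among distal links, and the genes of young library 1 were chosen after their values were seen. The motif CRE and the motif counts at distal peaks were added after the data were seen.

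The software was Python 3.11.15, with pysam 0.24.0, bedtools 2.31.1, numpy 2.4.6, scipy 1.17.1 and matplotlib 3.10.9. Linking was tested on simulated data, where 4000 of 4000 simulated promoter links and 4000 of 4000 distal links were recovered, as were 600 of 600 planted motifs. Alternatives covered the peak threshold, an equal number of peaks, the windows, the TSS set, the summit, the nearest gene, the H3K27ac background and each young library left out.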

Additional observations from a re-analysis of the deposited data

How the results depend on the processing

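Of 70 alternative values computed for 9 counts and share differences, 11 moved beyond their limit, 3 changed sign and the other 56 did neither. The limit was 1.5 times for a count, 1 SD over young libraries for the young share difference and the 95% binomial interval for an aged share difference, which is wide with 38 genes. With the 3863 strongest peaks of each JunB library, 9 genes in place of 15 had an aged promoter peak, 1 in place of 3 had one in all 4 libraries, and 12 in place of 24 had an aged distal peak; fewer peaks were then counted. Leaving out each young library in turn gave 3 to 6 genes with a young promoter peak, and a share above the background by −0.961 to 3.93 percentage points, against 3.03 with all 3 libraries. The low values were those without young library 1, which alone held Ccnd3, Cdk4 and Aurka. With a peak required in at least 2 young libraries there were 3 genes and a difference of 0.373 points, and with the 5′ end of the gene as the only TSS the difference was 5.54 points. With distal peaks linked to the nearest gene alone, 5 genes in place of 17 had one in the young libraries, 6 had one in the aged library and the aged difference turned from 12.5 to −0.952 points. At 3 to 20 kb the counts were 11 and 10 and the aged difference was −0.225 points; both settings count fewer links. Among genes with a promoter H3K27ac peak the aged distal difference was 2.58 points, inside its interval but well below 12.5. The aged promoter difference was 15.6 points, and 12.6 to 17.7 points under the 7 alternatives run for it. No paired analysis was possible because there was 1 aged library and no result came from a test. Depth is unknown, so a gene without a peak is one at which none was called.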
